A study of Mus musculus with 28 samples.

Results

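The 35 genes described here encode the enzymes of glycolysis, the carriers that move glucose and lactate across the plasma membrane, 3 regulators of glycolytic flux and a set of genes known to respond to low oxygen. Members were picked by symbol as genes of those pathways, and the expression table listed each of the 35 among its 18463 unique gene symbols. They comprised 17 glycolytic enzymes, 4 transporters, 3 flux regulators and 11 hypoxia reporters.

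RNA was sequenced from 3LL (Lewis lung carcinoma) cells, a mouse lung cancer line, in culture and from subcutaneous tumors grown from them, with 4 libraries in each of 7 groups. Cultured cells were wild type (WT), KEAP1-KO or DKO. KEAP1-KO cells were CRISPR-Cas9-edited 3LL cells cloned from a single colony, with a homozygous 1 bp insertion in exon 2 of Keap1. DKO cells were derived from KEAP1-KO cells by deleting Nrf2 as well, again with cloning from 1 colony, so that both edited groups carry the Keap1 edit. More than 1 edited line was made, and the sources do not say which one each library came from. Tumors grew for 10 days in albino C57BL/6 male mice that were 6 weeks old at transplantation and immunocompetent. In experiment A, WT cells were placed on the left flank and KEAP1-KO cells on the right flank. In experiment B, KEAP1-KO cells were placed on the left flank and DKO cells on the right. Within either experiment, genotype and flank cannot be told apart. Nothing in the sources describes the 4 libraries of a cultured group as separate cultures, so p-values for cells measure only the spread between these libraries, which may be technical.

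Glycolysis converts glucose to pyruvate in the cytosol, and lactate dehydrogenase with the monocarboxylate transporters disposes of the pyruvate as lactate when respiration is limited. Under low oxygen, the prolyl hydroxylases that mark HIF-1α for degradation slow down, and HIF-1α with its partner ARNT induces most glycolytic genes together with reporters such as Car9, Vegfa, Adm, Bnip3 and Egln3. KEAP1 directs NRF2 to the proteasome, and its loss leaves NRF2 active on genes of antioxidant defence, NADPH supply and the pentose phosphate pathway.

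HIF binds the letters ACGTG or GCGTG, and NRF2 binds an element whose core is written TGACNNNGC. These letters were searched on both strands in the RefSeq promoter sequences (mouse build GRCm38.p6), from 250 bases before to 50 after the transcription start. Promoters were found for 33 of the 35 genes, 49 promoters in all, and at least 1 promoter held ACGTG or GCGTG in 30 genes. By promoter, 77.6% of the 49 held either core, against 43.8% of all 32851 promoters in that set. TGACNNNGC was found in 10.2% of the 49 and in 12.4% of all promoters. The palindrome CACGTG, which is ACGTG on both strands at once and is also read by other factors, was found in 10.2% and 7.15%. A match describes letters and not a bound site. The 250 bases before the start are shown for 5 genes whose rows moved in the comparisons described further on, with matched letters in capitals:
Hk2, chr6:82774455-82774704 (minus strand): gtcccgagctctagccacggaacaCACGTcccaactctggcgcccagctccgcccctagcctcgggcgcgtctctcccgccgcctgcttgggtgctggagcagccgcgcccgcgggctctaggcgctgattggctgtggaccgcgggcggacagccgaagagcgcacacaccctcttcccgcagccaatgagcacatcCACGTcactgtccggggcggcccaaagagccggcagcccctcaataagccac
Slc16a1, chr3:104638414-104638663 (plus strand): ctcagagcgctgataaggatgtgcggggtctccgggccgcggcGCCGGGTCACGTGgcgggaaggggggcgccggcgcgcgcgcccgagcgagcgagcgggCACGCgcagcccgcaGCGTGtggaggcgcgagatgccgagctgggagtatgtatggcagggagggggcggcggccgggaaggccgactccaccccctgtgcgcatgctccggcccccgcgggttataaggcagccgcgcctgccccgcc
Bnip3, chr7:138909507-138909756 (minus strand): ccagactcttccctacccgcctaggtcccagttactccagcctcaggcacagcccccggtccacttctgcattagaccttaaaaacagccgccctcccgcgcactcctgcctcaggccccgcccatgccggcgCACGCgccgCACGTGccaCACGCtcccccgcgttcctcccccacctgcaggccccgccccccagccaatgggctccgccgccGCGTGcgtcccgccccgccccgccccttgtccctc
Egln3, chr12:54203875-54204124 (minus strand): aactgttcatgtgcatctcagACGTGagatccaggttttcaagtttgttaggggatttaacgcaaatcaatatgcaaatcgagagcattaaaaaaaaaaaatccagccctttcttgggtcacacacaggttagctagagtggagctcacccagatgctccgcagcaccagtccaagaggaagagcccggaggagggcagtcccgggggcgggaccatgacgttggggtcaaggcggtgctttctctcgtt
Adm, chr7:110627407-110627656 (plus strand): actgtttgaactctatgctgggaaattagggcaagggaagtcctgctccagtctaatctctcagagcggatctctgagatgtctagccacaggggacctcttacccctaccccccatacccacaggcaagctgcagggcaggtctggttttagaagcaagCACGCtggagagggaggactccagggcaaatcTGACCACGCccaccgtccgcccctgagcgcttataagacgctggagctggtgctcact
The Hk2 matches lay 226 and 52 bases before the start, the Egln3 match 229 bases before it and the GCGTG matches of Adm 90 and 54 bases before it. In Adm the last of these overlaps the TGACNNNGC match. In Slc16a1 the TGACNNNGC match runs into a CACGTG palindrome, and Bnip3 carries a CACGTG flanked by GCGTG matches.

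Values are log2(normalized count + 4), as deposited, so a value of 2 means no reads and a log2 difference understates the change of low rows. Library depth was between 4222377 and 7524288 reads (median 5619795). Most rows of the table are transcripts, and the row that carries a symbol is not always the main one of its gene: of the 35 rows, 17 were annotated as retained intron and only 3 as protein coding transcripts, while 8 were rows of whole genes. The symbol row held a median of 72.6% of the counts summed over all rows of its gene. It held 99.1% for Gapdh and 98.7% for Eno1 and for Bnip3, but under 10% for 7 genes (Hk1, Pfkp, Pfkl, Aldoa, Pfkfb3, Ndrg1 and Kdm3a). Values for the summed rows are therefore given beside many of the results. Gapdh, Eno1, Pgk1, Tpi1, Ldha, Pkm and Aldoa have near-identical copies elsewhere in the mouse genome, and their reads may have been split among them. Expression of 18 of the 35 genes reached 5 normalized counts in all 28 libraries. Car9, the tumor-associated carbonic anhydrase, reached it in fewer than 4 libraries (log2 values from 2 to 3.60) and was not tested.

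The genotypes were checked with 4 genes outside the set. Mean Keap1 was 9.45 in WT cells and 7.59 and 7.35 in KEAP1-KO and DKO cells, and 8.88 in WT tumors against 7.37 to 7.46 in the other tumors. Nqo1, a standard NRF2 target, was higher in KEAP1-KO than in WT by 5.55 in tumors and 3.44 in cells, and lower in DKO than in KEAP1-KO by log2 differences of -6.30 and -5.68. Gsta4, another NRF2 target, was at a mean of 4.16, 8.41 and 3.10 in WT, KEAP1-KO and DKO cells, and at 3.15 in WT, 7.90 and 7.33 in KEAP1-KO and 2.56 in DKO tumors. Nfe2l2, which encodes NRF2 and was edited by a small insertion and a small deletion, was not lower in DKO: its row averaged 5.32, 4.84 and 5.06 in WT, KEAP1-KO and DKO cells (DKO against KEAP1-KO 0.22, adjusted p = 0.65) and 5.59 in both tumor groups of experiment B. Its level therefore did not check the DKO label. Among the tumors, WT tumor 4 gave the highest value of its group for 25 of 34 genes of the set and DKO tumor 4 for 21 of 34, and the main results that these libraries move are given without them as well.

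KEAP1-KO cells were compared with WT cells to ask how glycolytic and hypoxia genes stand in culture when NRF2 is active. Of the 30 genes tested, 11 rose and 2 fell (13 of 30, 43.3%, against 15.5% of all 29744 rows called in either direction, 8.13% higher and 7.33% lower). In 13 of the 30 the WT and KEAP1-KO libraries did not overlap, against 19.6% of all rows. The risers were the hexokinase Hk2, Gapdh, the enolases Eno1 and Eno2, the pyruvate kinase Pkm, the glucose transporter Slc2a1 (GLUT1), the lactate exporter Slc16a3 (MCT4), and the reporters Adm, Bnip3, Egln1 and P4ha1. The genes that fell were Pdk1, the kinase that shuts off pyruvate dehydrogenase, and Pfkm, the muscle-type phosphofructokinase. Among glycolytic enzymes 5 rose and 1 fell of 15 (median log2 difference 0.19), among hypoxia reporters 4 rose and none fell of 10 (median 0.25), and the median over all rows was 0.02. Proliferation markers had 5 of 10 lower and carcinoma epithelium markers 2 of 2 lower, and their part in the differences was not tested.

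Adm, which encodes the vasodilator peptide adrenomedullin, moved most. Its log2 values were 4.62, 4.90, 4.68 and 5.04 in WT cells and 6.95, 6.84, 6.84 and 6.85 in KEAP1-KO cells. The groups were far apart, with a log2 difference of 2.06 (SE 0.13, adjusted p = 3.8e-07, a 4.17-fold difference on this scale). Slc2a1, the main glucose importer of most cancer cells, was at 10.03, 10.15, 10.08 and 10.04 in WT cells and at 10.82, 10.99, 10.83 and 10.87 in KEAP1-KO cells. The difference was 0.80 (SE 0.06, adjusted p = 1.4e-06).

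Gapdh, the seventh most abundant row of the whole table, stood at 15.10, 14.98, 15.03 and 15.00 in WT cells and at 15.70, 15.85, 15.73 and 15.86 in KEAP1-KO cells. Every KEAP1-KO library was above every WT library, by 0.76 on average (SE 0.04, adjusted p = 8.9e-08). Hk2, which traps glucose in the cell as glucose-6-phosphate, rose by 0.56 (SE 0.05, adjusted p = 1.0e-05), from 9.91, 9.86, 9.92 and 9.94 to 10.39, 10.42, 10.50 and 10.55. Pkm rose by 0.47, Slc16a3 by 0.57, Bnip3 by 0.43, Egln1 by 0.30, P4ha1 by 0.25 and Eno1 by 0.19.

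The Eno2 row, a retained-intron transcript of the neuronal enolase at 3.10, 2.86, 3.39 and 2.34 in WT cells and 4.01, 4.17, 4.57 and 3.88 in KEAP1-KO cells, was called with a difference of 1.24 (SE 0.34, adjusted p = 0.027). It held 34.9% of the counts of its gene, and the summed rows gave -0.22 (adjusted p = 0.56), so the direction was not that of the gene as a whole. Pdk1 stood at 8.57, 8.62, 8.68 and 8.77 in WT cells and at 7.61, 8.01, 7.87 and 8.09 in KEAP1-KO cells, a difference of -0.77 (SE 0.11, adjusted p = 2.7e-04) against the direction of most of the set. Pfkm went from 9.70, 9.54, 9.63 and 9.62 to 9.38, 9.45, 9.41 and 9.48, a small but separate change of -0.19 (SE 0.05, adjusted p = 0.012). For Aldoa, whose symbol row held 5.51% of its gene's counts and gave -0.19 (adjusted p = 0.80), the summed rows gave 0.61 (adjusted p = 0.0022).

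In DKO cells, which lack NRF2 as well, most called genes were lower than in KEAP1-KO cells. Both were cloned from single colonies, so clone and genotype cannot be told apart here or in any other comparison of edited cells or their tumors. In DKO against KEAP1-KO cells 1 gene rose and 11 fell of 30 tested (12 of 30, 40.0%, against 8.83% of all rows, 3.98% higher and 4.85% lower), and 15 had groups that did not overlap, against 14.5% of all rows. This comparison shares the KEAP1-KO libraries with the one before, so that opposite directions in the pair are not independent, and the values are given side by side. Glycolytic enzymes included 5 that fell and none that rose of 15 (median -0.39), and hypoxia reporters 3 that fell and 1 that rose of 10 (median -0.36), with a median of -0.03 over all rows.

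Adm in DKO cells was at 5.26, 4.97, 5.35 and 5.05, below every KEAP1-KO library, a difference of -1.72 (SE 0.13, adjusted p = 2.8e-06, a 3.28-fold difference). Bnip3, a BH3 protein that drives mitophagy, was at 8.47, 8.71, 8.59 and 8.59 in KEAP1-KO cells and at 7.30, 7.23, 7.50 and 7.46 in DKO cells. It fell by 1.22 (SE 0.08, adjusted p = 4.2e-07) and lay below the WT cells too, which were at 8.25, 8.14, 8.18 and 8.10.

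Egln3, the HIF prolyl hydroxylase PHD3 and itself a HIF target, was close to level between WT cells (10.51, 10.33, 10.41 and 10.43) and KEAP1-KO cells (10.33, 10.39, 10.42 and 10.50), at a difference of -0.01 (adjusted p = 0.94). In DKO cells it was at 9.41, 9.24, 9.31 and 9.36, lower than KEAP1-KO by 1.08 on the log2 scale (difference -1.08, SE 0.05, adjusted p = 3.9e-08). Egln1, the hydroxylase PHD2 that sets HIF-1α turnover in normal oxygen, was the only gene called higher. It was at 9.72, 9.80, 9.84 and 9.82 in KEAP1-KO cells and at 10.06, 10.02, 10.15 and 10.17 in DKO cells, a difference of 0.31 (SE 0.03, adjusted p = 9.5e-04).

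The other genes that fell were Gpi1 (-0.68), Pdk1 (-0.59), Slc16a3 (-0.47), Slc2a1 (-0.41), Hk2 (-0.41), Pkm (-0.39), Gapdh (-0.32) and Eno1 (-0.19). Of these, Slc16a3 was no longer called when its rows were summed (adjusted p = 0.073). Summed rows added calls in this comparison, to 2 higher and 14 lower of 33 genes tested: Pfkfb4 (-1.35), Pfkp (-0.78), Vegfa (-0.72) and Pfkl (-0.51) were lower and Ndrg1 (0.64) higher. Gapdh in DKO cells (15.51, 15.47, 15.46 and 15.44) remained above all WT cells, whereas Pdk1 (7.39, 7.24, 7.13 and 7.46) went further below them. Set directly against WT cells, DKO cells had 5 genes higher and 5 lower of 30 tested (33.3%, against 17.7% of all rows, 8.46% higher and 9.2% lower), and groups that did not overlap for 14, against 21.2% of all rows. The lower ones were Pdk1 (-1.36), Egln3 (-1.09), Bnip3 (-0.79), Gpi1 (-0.71) and Pfkm (-0.30), and the higher ones Ndrg1 (0.96), Egln1 (0.60), Gapdh (0.44), Slc2a1 (0.40) and P4ha1 (0.16). With the rows of each gene summed, 6 genes were higher and 11 lower. Pfkfb4 (-1.18), Pgk1 (-0.94), Vegfa (-0.88), Ldha (-0.86), Pgam1 (-0.70), Pfkl (-0.50), Pfkp (-0.47) and Hk2 (0.15) were then added, and Gpi1 was lost (-0.16, adjusted p = 0.30). Proliferation markers had 2 higher and 1 lower of 10 in DKO against KEAP1-KO cells, and 2 higher and 5 lower against WT cells. Carcinoma epithelium markers had 2 of 2 lower in each comparison. The part of these markers in the differences was not tested.

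**Figure D1:**
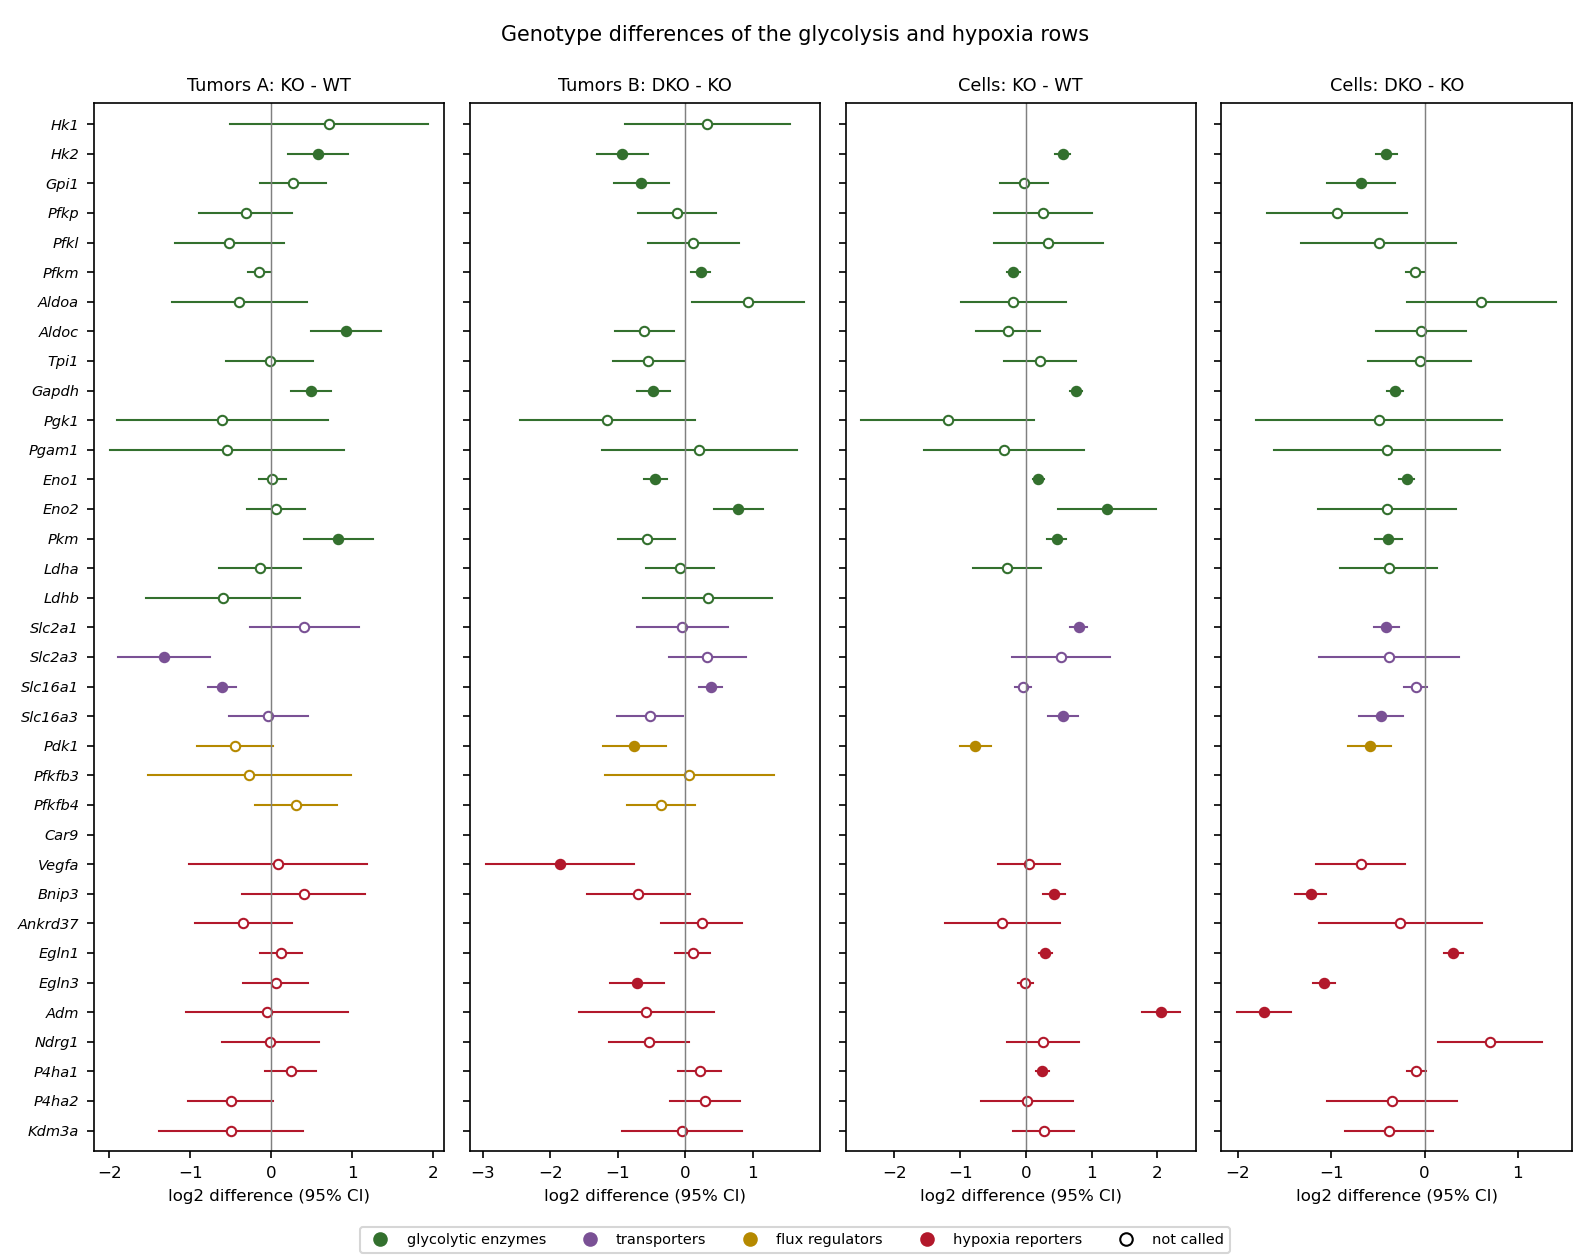
Log2 differences of each gene between genotypes, with 95% confidence intervals, in tumors and in cultured cells, for KEAP1-KO minus WT and for DKO minus KEAP1-KO. Adm lies far from 0 in both cell comparisons (2.06 and -1.72). In KEAP1-KO against WT tumors it lies at -0.05, or at 0.48 without WT tumor 4, and was not called either way.

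In experiment A, KEAP1-KO tumors were compared with WT tumors carried by the same mice. Of 34 genes tested 4 rose and 2 fell (17.6%, against 13.1% of all 34215 rows, 5.61% higher and 7.49% lower), and 4 had groups that did not overlap, against 16.3% of all rows. The 4 that rose were all glycolytic enzymes, Aldoc, Pkm, Hk2 and Gapdh, and the 2 that fell were transporters, Slc2a3 and Slc16a1. With quantile normalization, and with only these groups in the fit, 2 rose and 2 fell, the calls of Hk2 and Gapdh being lost. None of the 10 hypoxia reporters tested passed with limma or with voom (median 0.02), and over the whole set 7 genes had an unadjusted p under 0.05. The median over the 17 glycolytic enzymes was -0.02 and over all rows -0.03.

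Aldoc, the brain-type aldolase, was at 4.73, 4.85, 4.75 and 5.51 in WT tumors and at 5.98, 5.98, 5.84 and 5.75 in KEAP1-KO tumors, with no overlap. The difference was 0.93 (SE 0.21, adjusted p = 0.0060). Pkm, which makes pyruvate and ATP in the last step of glycolysis, was at 10.12, 10.06, 10.49 and 10.91 in WT tumors and at 11.13, 11.30, 10.88 and 11.60 in KEAP1-KO tumors. These ranges touched at WT tumor 4 and KEAP1-KO tumor 3, and the difference was 0.83 (SE 0.20, adjusted p = 0.010).

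Gapdh rose by 0.49 (SE 0.11, adjusted p = 0.0088), from 14.36, 14.37, 14.51 and 14.99 in WT tumors to 15.13, 15.11, 14.82 and 15.13 in KEAP1-KO tumors. Hk2 was at 10.54, 10.40, 10.97 and 11.32 in WT tumors and at 11.48, 11.50, 11.07 and 11.50 in KEAP1-KO tumors, a difference of 0.58 (SE 0.18, adjusted p = 0.039). For Gapdh the difference with quantile normalization was 0.21 (adjusted p = 0.16). With replicate numbers blocked, Hk2 did not pass (adjusted p = 0.064), nor with no filter or without a trend, nor did it when WT tumor 1 or 2 or KEAP1-KO tumor 1, 2 or 4 was left out in turn.

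Slc2a3, the high-affinity glucose transporter GLUT3 that is abundant in neurons and leukocytes, was at 5.86, 5.52, 6.35 and 6.69 in WT tumors and at 4.99, 4.94, 4.42 and 4.77 in KEAP1-KO tumors. The groups did not overlap, and the difference was -1.33 (SE 0.27, adjusted p = 0.0030). Slc16a1 (MCT1), which carries lactate and pyruvate in either direction, was at 11.53, 11.71, 11.72 and 11.49 in WT tumors and at 10.85, 11.03, 11.18 and 10.94 in KEAP1-KO tumors. It gave the firmest call of experiment A, at -0.61 (SE 0.08, adjusted p = 7.5e-05).

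The cell makeup of the tumors moved with these results. Leukocyte markers (8 genes, Ptprc and Tyrobp among them) summed to 2643 to 3277 normalized counts in WT tumors and to 665 to 800 in KEAP1-KO tumors of experiment A, with 8 of 8 lower. Macrophage markers summed to a median of 6820 and 2832 (7 of 8 lower), neutrophil markers to 672 and 321 (4 of 5 lower) and fibroblast markers to 5731 and 2065 (1 of 7 lower). Endothelial markers were at 1115 and 1061, with none of 8 called. The part of these cells in the differences of the set was not tested, and in bulk samples fewer cells of a type and less RNA per cell cannot be told apart. WT tumor 4 weighed on the averages: the mean difference over the 10 hypoxia reporters was -0.05 with it and 0.18 without it, and over the 17 glycolytic enzymes 0.04 and 0.15. For Adm the difference was -0.05 with it and 0.48 without it (adjusted p = 0.49), and for Slc2a1 0.41 and 0.76 (adjusted p = 0.071). Without it 8 genes were called, 6 higher and 2 lower, Gpi1 and Egln1 being added to the higher ones.

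In experiment B, DKO tumors were compared with KEAP1-KO tumors. Of 34 genes tested 3 rose and 7 fell (29.4%, against 8.86% of all rows, 4.22% higher and 4.64% lower), and in 13 the groups did not overlap, against 14.6% of all rows. The balance toward lower values depended on the processing: 3 rose and 3 fell with voom, 3 rose and 4 fell with no filter or with quantile normalization, and 1 rose and 2 fell without a trend, when only Eno2, Hk2 and Eno1 were called. Vegfa, Hk2, Pdk1, Egln3, Gpi1, Gapdh and Eno1 fell, and Eno2, Slc16a1 and Pfkm rose. Glycolytic enzymes thus went both ways (2 higher, 4 lower of 17, median -0.13), while hypoxia reporters had none higher and 2 lower of 10 (median -0.29), with a median of 0.00 over all rows.

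Hk2 was at 11.12, 11.07, 11.22 and 11.30 in KEAP1-KO tumors and at 10.21, 10.47, 9.88 and 10.43 in DKO tumors, wholly apart, with a difference of -0.93 (SE 0.18, adjusted p = 0.0026). Eno1, the main enolase of most tissues, was at 13.25, 13.32, 13.39 and 13.35 in KEAP1-KO tumors and at 12.75, 12.93, 12.90 and 12.96 in DKO tumors. It gave the lowest adjusted p of experiment B at -0.44 (SE 0.08, adjusted p = 0.0014). Gapdh fell by 0.47 on the log2 scale (difference -0.47, SE 0.11, adjusted p = 0.015), from 14.87, 14.88, 15.02 and 14.90 to 14.33, 14.49, 14.40 and 14.56.

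Vegfa, the principal angiogenic factor induced by hypoxia, was at 6.06, 5.69, 5.95 and 6.21 in KEAP1-KO tumors and at 2, 4.20, 4.82 and 5.43 in DKO tumors. All DKO values were lower, but DKO tumor 1 had no reads on this row and set much of the difference of -1.86 (SE 0.52, adjusted p = 0.033). Without that tumor the difference was -1.16 (adjusted p = 0.029), and with the rows of the gene summed it was -1.25 (adjusted p = 0.0019). The call was lost with a pseudocount of 0.4, with no filter, without a trend, with voom and with only these groups in the fit (adjusted p = 0.051 to 0.11). Pdk1 was at 7.87, 7.93, 8.16 and 8.29 in KEAP1-KO tumors and at 7.25, 7.49, 6.85 and 7.63 in DKO tumors, a difference of -0.76 (SE 0.22, adjusted p = 0.042). Egln3 was at 11.03, 10.78, 11.16 and 11.26 in KEAP1-KO tumors and at 10.34, 10.26, 10.15 and 10.64 in DKO tumors (-0.71, SE 0.19, adjusted p = 0.025). Gpi1 fell by 0.65 on the log2 scale (difference -0.65, SE 0.19, adjusted p = 0.046). The calls of Pdk1, Gpi1 and Egln3 were all lost with quantile normalization, without a trend and with voom.

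Of the genes that rose, Slc16a1 went from 11.10, 11.33, 11.01 and 11.04 to 11.48, 11.49, 11.49 and 11.53, a difference of 0.38 (SE 0.08, adjusted p = 0.0070). Eno2 went from 5.21, 4.67, 5.06 and 4.79 to 5.58, 5.47, 5.98 and 5.85 (0.79, SE 0.17, adjusted p = 0.0067), and here the summed rows gave a like value of 0.92. Pfkm went from 9.22, 8.94, 9.14 and 9.11 to 9.31, 9.34, 9.38 and 9.28, a difference of 0.23 (SE 0.07, adjusted p = 0.045), which did not pass with replicate numbers blocked (adjusted p = 0.085). Pdk1 did not pass with the block either (adjusted p = 0.066). Leaving out DKO tumor 1 reduced the calls from 10 to 5, with Gpi1, Pfkm, Gapdh, Pdk1 and Egln3 lost. Leaving out DKO tumor 2, DKO tumor 3, KEAP1-KO tumor 3 or KEAP1-KO tumor 4 gave 5, 6, 5 and 5 calls. Without DKO tumor 4 there were 9 calls, Gpi1 and Pfkm being lost and Pkm added.

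Leukocyte markers were higher in DKO tumors (1827 to 2692 summed counts) than in KEAP1-KO tumors of experiment B (1051 to 1308), with 7 of 8 called higher. Macrophage markers were at a median of 5979 against 4333 (3 of 8 higher), neutrophil markers at 253 against 193 (1 of 5 higher) and endothelial markers at 983 against 1264 (1 of 8 lower, median log2 difference -0.28). Fibroblast markers were also higher, at a median of 11761 against 2668 (3 of 7 called), and skeletal muscle markers reached 24 to 437 in DKO tumors against 11 to 60 (2 of the 4 tested called). Red blood cell markers were at 646 and 1229 with none called. Lymphoid, adipocyte and keratinocyte markers, of which only 1, 2 and 2 could be tested, gave no call in either experiment. Carcinoma epithelium markers had 2 of 3 lower in A, and 1 higher and 1 lower of 3 in B. Proliferation markers had 3 of 10 lower in A and 1 of 10 lower in B. Pfkm is also abundant in skeletal muscle, and the part of these cells in the differences was not tested.

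Experiments A and B share no library. All 6 genes called in A had the opposite sign in B. For 3 of them, Hk2, Gapdh and Slc16a1, the opposite difference was called as well. Over all 4483 rows called in A, 72.4% had the opposite sign in B and 29.4% were called in the opposite direction, so that such turns were common in the whole table. The other 3, Aldoc (-0.61), Pkm (-0.57) and Slc2a3 (0.32), did not pass in B (adjusted p = 0.083, 0.095 and 0.57). KEAP1-KO tumors of experiment B were compared with those of experiment A as a check of the same genotype on opposite flanks. These groups also differ in experiment and in the companion tumor (WT in A, DKO in B), which cannot be told apart from flank. None of 34 genes was called by limma (1 at an unadjusted p under 0.05, and 0 under every alternative run, voom included), against 0.164% of all rows, and none had groups that did not overlap, against 4.11% of all rows. Leukocyte markers still differed between these KEAP1-KO groups, at a median of 689 in A and 1211 in B, with 2 of 8 called higher in B. Macrophage markers had 4 of 8 called higher in B.

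DKO tumors against WT tumors, which also differ in experiment, gave 3 genes of 34, all of them lower on the values as deposited (8.82%, against 10.6% of all rows, 4.57% higher and 5.99% lower), and 7 had groups that did not overlap, against 16.5% of all rows. These were Vegfa (-2.16), Pdk1 (-1.18) and Eno1 (-0.52), and they were called as lower under the other scalings and with voom as well. Vegfa was not called with a pseudocount of 0.4 or with only these groups in the fit (adjusted p = 0.061 and 0.070). Risers were added by other processing: Eno2 (0.58), Pfkm (0.26) and P4ha1 (0.55) with quantile normalization, the same 3 with voom, Eno2 and Pfkm without the 20 highest rows, and Eno2 with median centring. With the rows of each gene summed 1 was higher and 7 lower, Eno2 (0.67), Adm (-1.43), Hk2 (-0.56), Egln3 (-0.56) and Aldoa (-0.45) being added. Cell makeup differed here too. Leukocyte markers summed to a median of 3038 in WT and 2357 in DKO tumors (2 of 8 lower), neutrophil markers to 672 and 253 (4 of 5 lower), fibroblast markers to 5731 and 11761 (3 of 7 higher), skeletal muscle markers to 21.7 and 257 (3 of 4 higher) and proliferation markers to 9411 and 6966 (4 of 10 lower). Macrophage markers were at 6820 and 5979 and endothelial markers at 1115 and 983, with none of 8 called by limma in either list (4 and 2 at an unadjusted p under 0.05). Carcinoma epithelium markers had 2 of 3 lower. The part of these marker sets in the differences was not tested.

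Tumors were also set against cultured cells of the same genotype. In WT tumors against WT cells 19 genes rose and 4 fell of 34 tested (67.6%, against 38.8% of all 37246 rows, 24.7% higher and 14.1% lower). In KEAP1-KO tumors (mean of both experiments) against KEAP1-KO cells 15 rose and 5 fell (58.8%, against 44% of all rows, 27% higher and 16.9% lower), and in DKO tumors against DKO cells 16 rose and 4 fell (58.8%, against 43.5% of all rows, 27.6% higher and 15.9% lower). Groups that did not overlap numbered 19, 16 and 21 of 34, against 35.7%, 29.4% and 40% of all rows. These comparisons depend on how tumor and cell libraries are put on a common scale. With median centring 12 rose and 6 fell in WT, 15 and 8 in KEAP1-KO and 12 and 8 in DKO. With quantile normalization it was 16 and 1, 17 and 4, and 16 and 4, and without the 20 highest rows 21 and 2, 20 and 3, and 23 and 3. The median over all rows was 0.20, 0.17 and 0.23 as deposited, -0.12, -0.09 and -0.10 with median centring, and 0.45, 0.38 and 0.52 when rescaled without the 20 highest rows. Differences of the set are to be read against these medians. The glycolytic enzymes had medians of 0.90, 0.88 and 0.93 in the 3 genotypes and the hypoxia reporters 0.84, 0.76 and 0.92.

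Adm rose most, from 4.62, 4.90, 4.68 and 5.04 in WT cells to 8.18, 7.38, 8.71 and 10.22 in WT tumors. The groups were far apart at 3.81 (SE 0.38, adjusted p = 7.0e-09, a 14.0-fold difference on this scale), and at 3.28 without WT tumor 4. In KEAP1-KO the difference was 1.30, from the higher level in cells, to 8.61, 8.91, 8.03 and 8.73 in experiment A and 7.17, 7.57, 8.44 and 7.89 in B. In DKO it was 2.04.

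Ndrg1, a stress-response gene that accumulates in hypoxia, went from 2.65, 3.39, 3.24 and 2.85 in WT cells to 5.03, 5.03, 5.66 and 6.04 in WT tumors (2.41, SE 0.26, adjusted p = 3.4e-08). Its row held 8.82% of its gene's counts, and the summed rows gave 3.10. Eno2 rose by 2.25 (SE 0.25, adjusted p = 5.1e-08) to 4.82, 5.29, 5.28 and 5.31 in WT tumors, or by 1.14 with its rows summed. Slc2a1 rose by 1.96 (SE 0.26, adjusted p = 5.6e-07) to 11.78, 11.18, 12.10 and 13.08, WT tumor 4 being the highest, and by 1.61 without that tumor.

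Also higher in WT tumors were Aldoc (1.68), Gpi1 (1.56), the phosphofructokinases Pfkp (1.51) and Pfkl (1.08), the collagen prolyl hydroxylase P4ha2 (1.51), Ankrd37 (1.47), the triose phosphate isomerase Tpi1 (1.20), Slc2a3 (1.08), Pkm (1.03), Bnip3 (1.02), the lactate dehydrogenases Ldhb (0.92) and Ldha (0.89), Hk2 (0.90), Egln3 (0.49) and Egln1 (0.27, which turned negative with median centring). The calls of Egln1 and Egln3 were lost without WT tumor 4, and Bnip3 was then 0.65 higher. The call of Egln1 was also lost without any 1 of the WT cell libraries. That of Ldhb was lost without WT tumor 1 (0.50, adjusted p = 0.23) and without WT cells 2, 3 or 4. For Ldha, whose symbol row held 18.9% of its gene's counts, the summed rows did not pass (0.40, adjusted p = 0.13).

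A few glycolytic genes went the other way. Eno1 was at 14.34, 14.28, 14.27 and 14.25 in WT cells and at 13.27, 13.28, 13.38 and 13.68 in WT tumors (-0.88, SE 0.07, adjusted p = 1.4e-11). Slc16a1 was at 12.58, 12.36, 12.40 and 12.43 in WT cells and also lower in WT tumors as deposited (-0.83, adjusted p = 5.3e-10), but at -0.15 (adjusted p = 0.13) with quantile normalization it was not called. Pfkm was at -0.45 and Gapdh at -0.47 (adjusted p = 2.2e-04) as deposited, and neither call held in the other scalings except median centring. With quantile normalization, rescaled without the 20 highest rows and with voom, Gapdh was at 0.05, -0.09 and -0.03 (adjusted p = 0.69, 0.43 and 0.78) and Pfkm at -0.0029, -0.07 and -0.03 (adjusted p = 0.98, 0.29 and 0.69). Eno1 was called under each of these scalings (-1.21 to -0.31). In KEAP1-KO the lower genes were Slc16a1 (-1.34), Eno1 (-1.10), Gapdh (-0.80), Slc16a3 (-0.52) and Pfkm (-0.36, positive with quantile normalization). In DKO they were Eno1 (-1.40), Gapdh (-1.02), Slc16a1 (-0.80, positive with quantile normalization) and Slc16a3 (-0.61). The calls of Slc16a3 in both genotypes, and that of Pfkm in KEAP1-KO, were lost with quantile normalization, without the 20 highest rows and with voom.

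The tumor libraries contain host tissue that the cultures lack. Leukocyte markers summed to a median of 22.2 counts in WT cells and 3038 in WT tumors, endothelial markers to 10.6 and 1115, fibroblast markers to 284 and 5731 and red blood cell markers to 3.79 and 1406. Proliferation markers were lower, at 25018 and 9411, with 9 of 10 called. Hepatocyte markers were near 0 in every group (medians of 2.21 to 7.78, for 2 genes of the list of 7), although a part of the labels' protocol text speaks of liver. The part of host cells and of proliferation in the tumor differences was not tested.

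**Figure D2:**
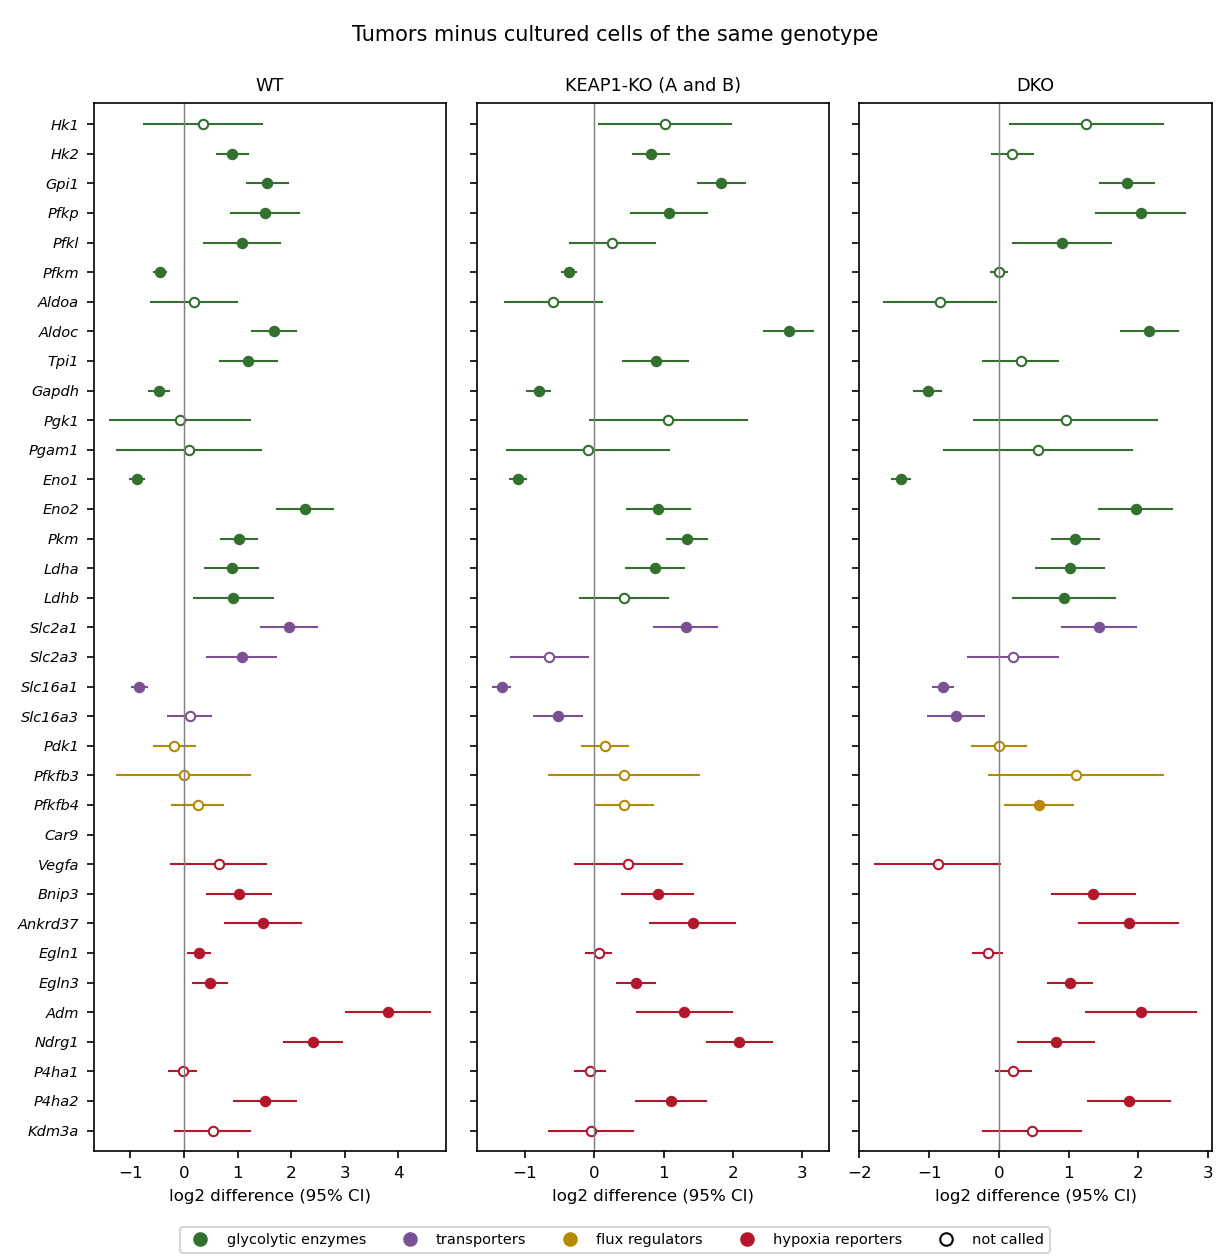
Log2 differences of each gene between tumors and cultured cells of the same genotype (WT, KEAP1-KO and DKO), with 95% confidence intervals, on the scale as deposited. Adm is the highest in WT at 3.81, and Eno1 lies below 0 in all 3 genotypes; Gapdh in WT, Pfkm in KEAP1-KO and Slc16a1 in DKO turn positive with quantile normalization, and Egln1 in WT turns negative with median centring.

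Whether a genotype difference in tumors departed from that in cells was tested as an interaction. For KEAP1 loss 4 of 34 genes passed (11.8%, against 5.38% of all rows, 1.5% higher and 3.88% lower). Adm differed by 2.06 in cells and by -0.05 in tumors, an interaction of -2.11 (SE 0.54, adjusted p = 0.018). Without WT tumor 4 the tumor difference was 0.48, in the direction of the cells, and the interaction was -1.58 (adjusted p = 0.023). It did not pass with quantile normalization (adjusted p = 0.057) or with voom (adjusted p = 0.19). Slc2a3 (-1.86, SE 0.44, adjusted p = 0.010) and Slc16a1 (-0.56, SE 0.10, adjusted p = 6.8e-04) were lower in KEAP1-KO tumors, against differences of 0.54 and -0.05 in cells. Aldoc was higher in KEAP1-KO tumors, against -0.27 in cells (interaction 1.20, SE 0.28, adjusted p = 0.0083, but 0.20 with voom). For NRF2 co-deletion 2 genes passed (5.88%, against 3.67% of all rows, 2.12% higher and 1.55% lower), Slc16a1 (0.47, SE 0.10, adjusted p = 0.0065) and Pfkm (0.33, SE 0.08, adjusted p = 0.014). Neither passed without a trend (adjusted p = 0.062 and 0.15), and Pfkm did not with median centring (adjusted p = 0.073). For the other genes tested, Hk2 and Gapdh among them, neither interaction was called.

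To set the glycolytic enzymes against the hypoxia reporters, each row was expressed relative to its mean in WT cells and averaged within a library over the 17 enzymes and over the 10 reporters tested. These means use symbol rows only, and low rows weigh as much as abundant ones. Among the enzymes Ldhb, Hk1, Pgam1 and Pfkl reached 5 normalized counts in 5, 11, 13 and 15 of the 28 libraries. Among the reporters Kdm3a reached it in 17, the fewest. Differences of such rows are understated on this scale, and their part in the contrast of the classes was not tested. The enzymes averaged 0.00 ± 0.11 (SD, n = 4) in WT cells, 0.08 ± 0.15 in KEAP1-KO cells and -0.21 ± 0.09 in DKO cells. The reporters averaged 0.00 ± 0.06, 0.33 ± 0.19 and -0.15 ± 0.08. In KEAP1-KO cells the mean of the reporters was above that of the enzymes in each library (enzymes minus reporters, -0.40 to -0.12). It was above in each DKO cell library too, with smaller gaps (-0.08 to -0.04), while WT cells went both ways (-0.11 to 0.10). Without Adm, the 9 other reporters averaged 0.13 ± 0.22 in KEAP1-KO cells and lay above the enzymes in 2 of the 4 libraries. In DKO cells they averaged -0.21 ± 0.08 and lay above in 3 of 4. By the median over rows, Adm included, reporters lay above enzymes in 4 of 4 KEAP1-KO and 3 of 4 DKO cell libraries.

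In tumors the enzymes averaged 0.69 ± 0.24 in WT, 0.73 ± 0.07 and 0.65 ± 0.10 in KEAP1-KO of experiments A and B, and 0.49 ± 0.25 in DKO. The reporters averaged 1.21 ± 0.49, 1.17 ± 0.18, 1.06 ± 0.22 and 0.71 ± 0.38. In all 16 tumors the mean of the reporters exceeded that of the enzymes. Without Adm this held in 14 of the 16, DKO tumors 1 and 2 being the exceptions, and by the median over rows, Adm included, in 9 of the 16. Without Adm the reporters averaged 0.93 ± 0.41, 0.88 ± 0.16, 0.85 ± 0.22 and 0.52 ± 0.36. With Adm included, the gap in log2 units (enzymes minus reporters) ran from -0.84 to -0.26 in WT tumors, from -0.58 to -0.31 and from -0.55 to -0.27 in the KEAP1-KO groups, and from -0.40 to -0.04 in DKO tumors. These ranges overlap. Within each tumor group the library with the highest mean of enzymes was also the one with the highest mean of reporters: WT tumor 4, KEAP1-KO tumor 2 of A, KEAP1-KO tumor 4 of B and DKO tumor 4.

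**Figure D3:**
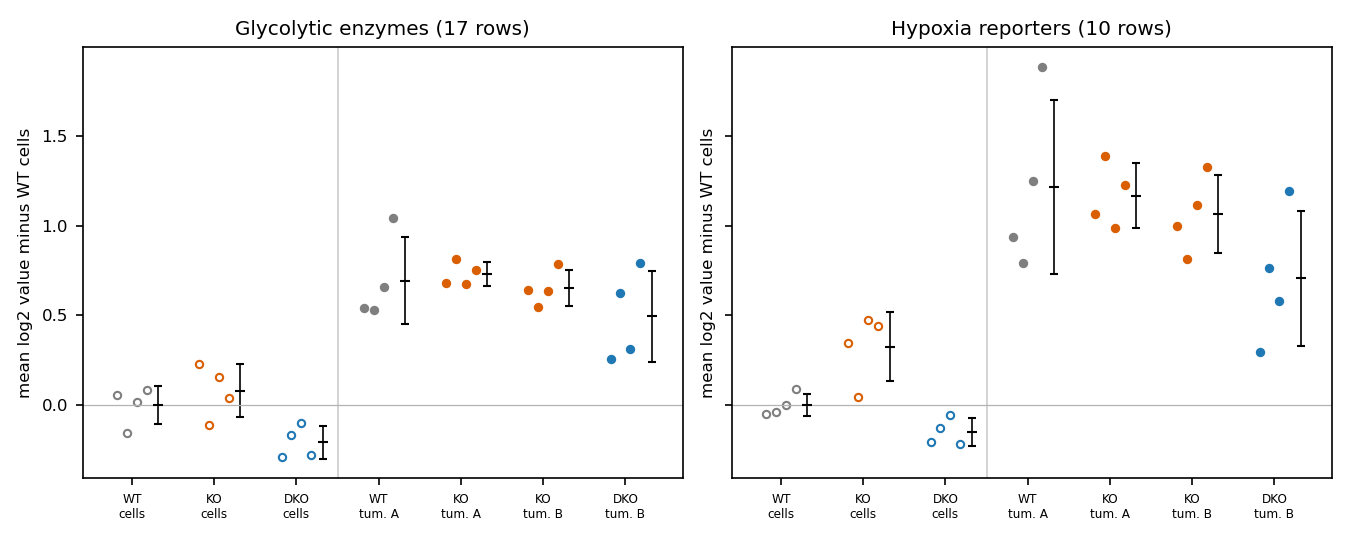
Mean log2 difference from WT cells over the 17 glycolytic enzymes and over the 10 tested hypoxia reporters in each library, with group means and SD. Reporters lie above enzymes in all 16 tumors (in 14 of them without Adm, and in 9 by the median over rows), and WT tumor 4 is the highest of all libraries in both classes (1.04 and 1.89).

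Genes of the set that passed no test between genotypes on their symbol rows are given by their range over all 28 libraries. Hk1, the housekeeping hexokinase, ranged from 2 to 4.89, Aldoa from 2 to 5.06, Pgk1 from 2 to 5.50 and Pgam1 from 2 to 4.88 on rows that held 7.08%, 5.51%, 32.8% and 17.6% of their genes' counts. These rows lay near the lower end of the scale in most libraries. Pfkfb3 and Pfkfb4, which set the level of the phosphofructokinase activator fructose bisphosphate, ranged from 2 to 4.91 and from 2 to 3.73. Of them Pfkfb4 was called only in DKO tumors against DKO cells (0.57). That call was lost without DKO cells 2 (0.38, adjusted p = 0.21), without DKO cells 4 and without any 1 of the DKO tumors. Of the genes called only between tumors and cells, Pfkp ranged from 2.79 to 5.91, Pfkl from 2 to 3.99, Tpi1 from 4.89 to 6.87, Ldha from 3.86 to 6.33, Ldhb from 2 to 4.27, Ankrd37 from 2 to 5.71 and P4ha2 from 3.15 to 6.20. Kdm3a, a histone demethylase induced by hypoxia, ranged from 2.31 to 4.34. By contrast P4ha1, the other collagen prolyl hydroxylase subunit of the set, was abundant and within a narrow range, from 10.18 to 11.14.

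Other genes of the same pathways were followed by 3 further lists. Of 22 other genes of glucose and pyruvate metabolism tested in tumors, 4 rose and 3 fell in experiment A (13.1% of all rows were called) and 1 rose and 3 fell in experiment B (8.86% of all rows). In A, the pyruvate carboxylase Pcx rose by 2.59, Pfkfb2 by 1.51 and Pgm1, a phosphoglucomutase, by 1.46, while the leukocyte-rich hexokinase Hk3 (-3.45), Eno3 (-1.05) and Pck2 (-0.68) were lower. In B, Pcx (-2.95), Pgm1 (-1.60) and the pyruvate carrier subunit Mpc1 (-0.54) were lower and Pck2 (0.54) higher. In cells 7 of 20 rose and 3 fell with KEAP1 loss (15.5% of all rows), led by Slc2a6 (1.85), Pgm1 (1.61) and Pcx (1.41), with Pck2 (-1.92), Pdp1 (-0.62) and Eno3 (-0.41) lower. With NRF2 co-deletion 3 rose and 4 fell (8.83% of all rows), among them Pck2 (1.95) up and Pcx (-2.27), Slc2a6 (-1.65) and Pgm1 (-1.63) down. The WT tumors against cells gave 4 higher and 10 lower of 22 (38.8% of all rows).

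Of 17 HIF subunits and regulators tested in tumors, 2 rose in A (the HIF subunit Hif3a by 1.70 and the coactivator Ep300 by 0.36) and 2 fell in B (Hif3a, -1.41, and Cul2, -0.39). These counts are near the shares of all rows called, 13.1% in A and 8.86% in B. In cells 3 rose and 2 fell of 14 with KEAP1 loss, Arnt2 (1.70), Hif3a (1.10) and Cul2 (0.33) against Crebbp (-0.64) and Egln2 (-0.35), and 2 rose and 3 fell with NRF2 co-deletion. The shares of all rows called were 15.5% and 8.83%. In WT tumors against cells 4 rose and 6 fell of 17 (38.8% of all rows). Epas1, which encodes HIF-2α and is rich in endothelium, rose by 5.70 and Hif1a by 0.63.

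Of 38 other HIF targets tested in tumors, 3 rose and 5 fell in A (13.1% of all rows), and 3 rose and 5 fell in B (8.86% of all rows). The glycogen branching enzyme Gbe1 was 1.99 higher in A and changed by -3.08 in B, and in cells by 1.77 and -3.21. In cells 6 rose and 3 fell of 28 with KEAP1 loss (15.5% of all rows), and 1 rose and 4 fell with NRF2 co-deletion (8.83% of all rows). In WT tumors against WT cells 19 rose and 5 fell of 38 (38.8% of all rows), led by Igfbp3 (7.61), Cxcr4 (4.62) and Mxi1 (2.86), with Mif (-1.16), Gbe1 (-1.09) and Tfrc (-0.99) lower.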

How the data were processed

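Directional, rRNA-depleted libraries were sequenced on a DNBSEQ platform from 12 cultured-cell and 16 tumor samples. Per the study's methods, transcripts were quantified with Salmon (Galaxy 1.5.1) against GENCODE mouse transcripts and processed in iDEP. The authors deposited 1 table of log2 values, read from its values as log2(normalized count + 4): 43143 rows, of which 34021 are transcripts and 9122 genes, with a lowest value of exactly 2. Low values gave whole reads in 100% of those checked (tolerance 0.05), from which the depth per library was taken; 0 columns went unused. The methods name TPM, but the table is on the log2 scale, so the log2 values were tested as deposited. Row types came from GENCODE release 21, which held 95.86% of the rows. The study's methods name a different GENCODE version for quantification, so a row's type may differ there.

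Groups were compared with limma 3.58.1 in R 4.3.3 (lmFit, eBayes with a trend). A row entered a fit if 4 or more of its libraries reached 5 normalized counts, p-values were Benjamini-Hochberg adjusted over all rows kept, and a row was called at an adjusted p under 0.05. Tumors (16 libraries) and cells (12) were fitted apart, and tumor against cell and interaction contrasts used all 28. Intervals and depths cover counting error or the spread between libraries only. The code was tested on simulated data.

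The 35 genes and all lists (other glucose and pyruvate genes, HIF regulators, other HIF targets, and markers of leukocytes, macrophages, neutrophils, lymphoid cells, endothelium, fibroblasts, skeletal muscle, adipocytes, keratinocytes, red blood cells, carcinoma epithelium, hepatocytes and proliferation) were chosen with earlier results of these data known. Every gene of the set is named. By the naming rule, values per library are given for the 3 highest and 3 lowest called differences of the 4 genotype comparisons and of WT tumors against cells, and at most 3 called genes per direction for the other lists; values per library of further called genes were added after they were seen. Alternatives were the filter, pseudocount, scaling, trend, threshold, groups in the fit, rows with a symbol only, a replicate block and each library left out. Sums of all rows of a gene, voom on the recovered reads, and class means without Adm or as medians were added after seeing the data.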

Additional observations from a re-analysis of the deposited data

Results flagged for a closer look

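With 4 libraries in a group, a library was picked out where its gap to the nearest other exceeded Dixon's 95% critical value, which chance alone exceeds at a rate of about 0.05. This happened in 17 of 226 groups tested (7.52%). That rate assumes normally distributed values and does not hold for rows at the floor of 2. Where all libraries but 1 lie there, as for Pgk1 in DKO cells and Pfkfb3 in KEAP1-KO tumors of A, any higher value is picked out. In WT tumors these were Hk1 in tumor 2 (3.65, next 2.75), Aldoc in tumor 4 (5.51, next 4.85), Egln1 in tumor 4 (10.29, next 9.65) and Eno2 in tumor 1 (4.82, next 5.28). In KEAP1-KO tumors of experiment A, tumor 3 was picked out for Hk2 (11.07, next 11.48), Gapdh (14.82, next 15.11), P4ha1 (10.51, next 10.83) and Pfkfb3 (2.98, next 2), and tumor 4 for Hk1 (2, next 4.16). In experiment B they were Gapdh in KEAP1-KO tumor 3 (15.02, next 14.90) and Ndrg1 in DKO tumor 1 (4.35, next 4.90). In cells they were Pgk1 in WT 3 (5.50, next 3.89) and DKO 3 (4.30, next 2), Pfkl in KEAP1-KO 2 (2.29, next 3.23), Adm in KEAP1-KO 1 (6.95, next 6.85), Slc16a3 in DKO 4 (8.25, next 7.90) and Ankrd37 in DKO 1 (3.15, next 3.05).

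The effect of KEAP1 loss differed between tumors of experiment A and cells, by the interaction test, for Aldoc (1.20), Slc2a3 (-1.86), Slc16a1 (-0.56) and Adm (-2.11). The effect of NRF2 co-deletion differed between tumors of experiment B and cells for Slc16a1 (0.47) and Pfkm (0.33).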

How the results depend on the processing

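Most calls kept their direction and their side of the threshold: over the 26 pairs of gene and comparison that the naming rule took, 491 recomputed values did so, 70 lost the call and 2 reversed (Gapdh in WT tumors against cells, 0.054 with quantile normalization, and Eno2 in KEAP1-KO against WT cells, -0.22 with rows summed). Among the other called differences, Egln1 in WT tumors against cells turned with median centring, and Pfkm in KEAP1-KO and Slc16a1 in DKO tumors against cells with quantile normalization. The cause was not tested. The count of called genes moved under more settings for DKO against WT tumors than for any other comparison. It was 3 as reported, 8 with a mean count of at least 25 and 6 with quantile normalization (3 higher, 3 lower). It was 5 without the 20 highest rows (2 and 3), 7 over rows with a symbol only, 8 with rows summed and 6 with voom (3 and 3). DKO against KEAP1-KO tumors (10) gave 3 without a trend (1 higher, 2 lower) and 6 with voom (3 and 3), and DKO against WT cells (10) gave 17 with rows summed. The NRF2 interaction (2) gave 1 with median centring, 0 without a trend and 4 over rows with a symbol only. With a log2 difference of at least 1 required as well, 1 gene remained in each tumor experiment, 2, 3 and 2 in the cell comparisons, 14 and 11 in WT and KEAP1-KO tumors against cells, and 0 in the NRF2 interaction.

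With each library left out, the calls ranged from 5 to 8 in experiment A, 5 to 9 in B, 3 to 7 for DKO against WT tumors, 0 to 0 between the KEAP1-KO tumors, 12 to 13, 10 to 12 and 8 to 11 in cells (KEAP1-KO against WT, DKO against KEAP1-KO, DKO against WT), 20 to 23, 19 to 21 and 18 to 19 in tumors against cells (WT, KEAP1-KO, DKO), and 4 to 5 and 2 to 3 for the KEAP1 and NRF2 interactions. For DKO against WT tumors the count was 6, 7 and 5 without WT tumors 1, 2 and 4, and 5 without DKO tumor 2 or 4. No source ties a replicate number to a mouse, and same-numbered samples did not deviate together (correlations of -0.034 to 0.040). With the number as a replicate block, 5 genes were called in A, 9 in B, 13, 12 and 11 in the cell comparisons, and 5 and 3 in the interactions. The block could not be fitted across experiments or between tumors and cells. Each gene of the set has a single row with its symbol, so summing rows by symbol changed nothing. Rows with few reads limit the set: 5 genes were not tested in cells.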
